A study of Mus musculus with 10 samples.

Results

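Haematopoietic stem cell and self-renewal genes are described here as a set of 30, taken by name from a list of surface receptors, transcription factors and other proteins by which stem cells are recognised or maintained. All 30 were found among the 38086 gene IDs present in the count tables of both cell populations. RNA-seq was done on total RNA of cells sorted from the bone marrow of C57BL/6 mice at 12 months of age. LSK cells carry Sca1 and cKit but no lineage markers, and contain the stem cells and the multipotent progenitors that descend from them. GMP, the granulocyte-macrophage progenitors, were sorted as cells without lineage markers or Sca1 that carry cKit, CD34 and FcgR, and form the myeloid lineage.

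There were 4 groups. LSK KO and GMP KO (3 libraries each) came from mice with floxed alleles of Dnmt3a, which encodes an enzyme that sets new DNA methylation, and the Mx1-Cre transgene. LSK CTRL and GMP CTRL (2 libraries each) came from mice with the same floxed alleles and no Cre. All groups share the treatment given in the labels, 5 injections of poly(I:C), the agent that switches Mx1-Cre on in blood-forming cells. Loss of Dnmt3a and presence of Cre therefore go together and cannot be told apart. Libraries carry their genotype and their title's number as a name (KO-352). Apart from these numbers the labels do not state whether libraries are separate animals, so p-values reflect the spread among libraries, which may be technical. In LSK the sex read from the counts, given below, differs within each genotype, so the libraries of a group there are not all from the same animal.

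A stem cell of the blood is kept quiescent and able to renew itself by a network of transcription factors, among them Mecom, Hlf, Tal1, Lmo2, Erg and Gfi1b. It is anchored in its niche by receptors such as Kit and Tek, the receptor of angiopoietin-1. As it matures into a myeloid progenitor, most of these genes are lowered or switched off, while Cd48 marks progenitors rather than stem cells. Loss of Dnmt3a is known in mice to let stem cells renew at the expense of differentiation.

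LSK libraries held 29533371 to 30437981 reads on genes and GMP libraries 93850256 to 122658636, so population coincides with depth and with the count table. Dnmt3a was at 51.2 to 57.1 CPM (read counts relative to library size, scaled over all 10 libraries) in LSK KO, against 145 and 151 in LSK CTRL, and at 20.5 to 65.9 CPM in GMP KO, against 115 and 143 in GMP CTRL. Mpo, the myeloperoxidase of myeloid granules, averaged 1143 ± 125 CPM in LSK KO, 1280 ± 88 in LSK CTRL, 10033 ± 2055 in GMP KO and 13146 ± 2323 in GMP CTRL (SD, n = 3, 2, 3 and 2). Fcgr3, part of the GMP gate, averaged 19.8 ± 2.69 CPM in LSK KO, 22.2 ± 2.37 in LSK CTRL, 348 ± 24.1 in GMP KO and 412 ± 4.06 in GMP CTRL. Cd3e, a T cell gene, was at or below a mean of 0.284 CPM in every group. Other T cell genes were higher. Lck averaged 24.2 CPM in LSK KO, 22.9 in LSK CTRL, 2.68 in GMP KO and 2.05 in GMP CTRL. In the same order, Cd4 averaged 4.87, 3.58, 3.10 and 0.206 CPM and Cd8a 1.73, 3.24, 0.137 and 0.175 CPM. The description field of GMP library KO-352 names LSK data, against its title, which was followed: Mecom was at 0.910 CPM in it, against 91.5 to 115 CPM in the LSK libraries. By Xist and Y-linked counts, LSK libraries KO-1327 and CTRL-1326 came from males, the other 3 LSK libraries from females and all 5 GMP libraries from males. Population is therefore not balanced for sex. This holds for LSK against GMP and for the difference of KO effects, and the part of sex in them was not tested.

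Promoter sequence was at hand for 23 of the 30 genes (RefSeq, GRCm38.p6, windows of 250 bases before and 50 bases after a start). None was matched for Thy1, Zfp521, Lmo2, Mn1, Ly6a, Esam and Angpt1. The 5 windows below belong to genes on which the results turn. Robo4 and Slamf1 had the largest positive differences between GMP KO and GMP CTRL, and Fgd5 was highest in the same 2 KO libraries. Cd48 and Bmi1 were the members not higher in LSK than in GMP. Capitals mark matches, on either strand, to the ETS letters CAGGAAG or the RUNX letters TGTGGT. The windows lie at chr9:37401722-37402021 (Robo4), chr1:171766882-171767181 (Slamf1), chr1:171681742-171682041 (Cd48), chr6:91978715-91979014 (Fgd5) and chr2:18676768-18677067 (Bmi1), all on the plus strand and written 5′ to 3′.
Robo4: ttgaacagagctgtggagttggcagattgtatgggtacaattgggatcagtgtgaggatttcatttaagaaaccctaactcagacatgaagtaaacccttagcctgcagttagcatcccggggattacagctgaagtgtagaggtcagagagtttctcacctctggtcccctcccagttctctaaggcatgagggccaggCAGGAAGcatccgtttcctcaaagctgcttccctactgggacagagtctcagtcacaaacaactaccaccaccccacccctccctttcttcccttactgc
Slamf1: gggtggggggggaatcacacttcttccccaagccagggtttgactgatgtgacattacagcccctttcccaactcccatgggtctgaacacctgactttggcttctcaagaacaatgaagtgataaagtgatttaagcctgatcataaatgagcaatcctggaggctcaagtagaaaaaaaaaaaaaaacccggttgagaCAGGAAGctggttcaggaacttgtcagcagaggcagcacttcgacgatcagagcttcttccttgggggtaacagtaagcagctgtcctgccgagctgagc
Cd48: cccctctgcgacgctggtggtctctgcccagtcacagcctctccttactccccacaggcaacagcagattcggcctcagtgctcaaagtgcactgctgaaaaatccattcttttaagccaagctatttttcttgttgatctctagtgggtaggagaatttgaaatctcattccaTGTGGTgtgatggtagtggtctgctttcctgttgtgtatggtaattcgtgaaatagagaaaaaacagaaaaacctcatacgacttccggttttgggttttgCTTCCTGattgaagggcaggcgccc
Fgd5: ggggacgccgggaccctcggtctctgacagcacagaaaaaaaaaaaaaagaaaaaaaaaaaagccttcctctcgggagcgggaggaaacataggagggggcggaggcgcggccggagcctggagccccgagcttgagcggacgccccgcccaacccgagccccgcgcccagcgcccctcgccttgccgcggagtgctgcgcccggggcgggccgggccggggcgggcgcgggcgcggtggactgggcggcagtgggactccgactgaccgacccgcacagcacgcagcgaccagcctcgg
Bmi1: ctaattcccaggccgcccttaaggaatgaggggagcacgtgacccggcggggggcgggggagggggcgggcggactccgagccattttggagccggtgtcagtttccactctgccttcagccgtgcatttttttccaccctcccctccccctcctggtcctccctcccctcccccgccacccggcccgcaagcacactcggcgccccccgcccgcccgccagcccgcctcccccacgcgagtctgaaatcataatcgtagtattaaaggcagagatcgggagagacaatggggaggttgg
The Robo4 window held 2 CpG sites and the Slamf1 window 4, against 7 for Cd48, 37 for Fgd5 and 23 for Bmi1. In Robo4 and in Slamf1 the ETS match began 50 bases before the start. Slamf1 and Cd48 are neighbours on chromosome 1, with a gap of 61.9 kb between the genes.

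Over the 29 windows of the 23 genes the median was 14 CpG sites, against 7 over all 32851 windows in the table. The ratio of observed to expected CpG was above 0.6 in 51.7% of member windows and in 35.8% of all windows. ETS letters were found in 6 of the 29 member windows (1 each of Robo4, Slamf1, Cd34, Cd48, Etv6 and Erg) and in 13.3% of all windows. GATA letters (AGATAA) were found in 3 of the 29 (Tek, Tal1 and Erg), against 11.2% of all windows. E-box letters (CAGATG) were in 5 of the 29 (Pdzk1ip1, Mecom, Mllt3, Tal1 and Trim47), against 17.2%, and RUNX letters in 1 (Cd48), against 16.8%. Such a match describes letters in a window, not binding.

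The members spanned a wide range of levels within LSK cells. Per kilobase of exon, Lmo2, a bridging factor of blood transcription complexes, had the highest level, at 253 ± 4.0 CPM per kb in LSK KO and 263 ± 8.0 in LSK CTRL. Txnip, an inhibitor of thioredoxin, followed at 143 ± 35.5 in LSK KO and 148 ± 2.88 in LSK CTRL, ahead of the sialomucin Cd34 (103 ± 6.21 and 114 ± 15.7 CPM per kb) in the same order. Angpt1, the ligand of Tek, came next at 91.1 ± 14.4 in LSK KO and 101 ± 13.2 CPM per kb in LSK CTRL, within its spread of both Cd34 and Kit. At the low end stood Slamf1, the SLAM family receptor CD150 used to sort stem cells, at 1.89 ± 0.190 CPM per kb in LSK KO and 1.58 ± 0.238 in LSK CTRL, and Thy1 at 1.61 ± 0.0481 and 2.0 ± 0.935, the lowest 2 in either genotype in an order that their spread does not separate (SD, n = 3 KO and 2 CTRL).

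**Figure D1:**
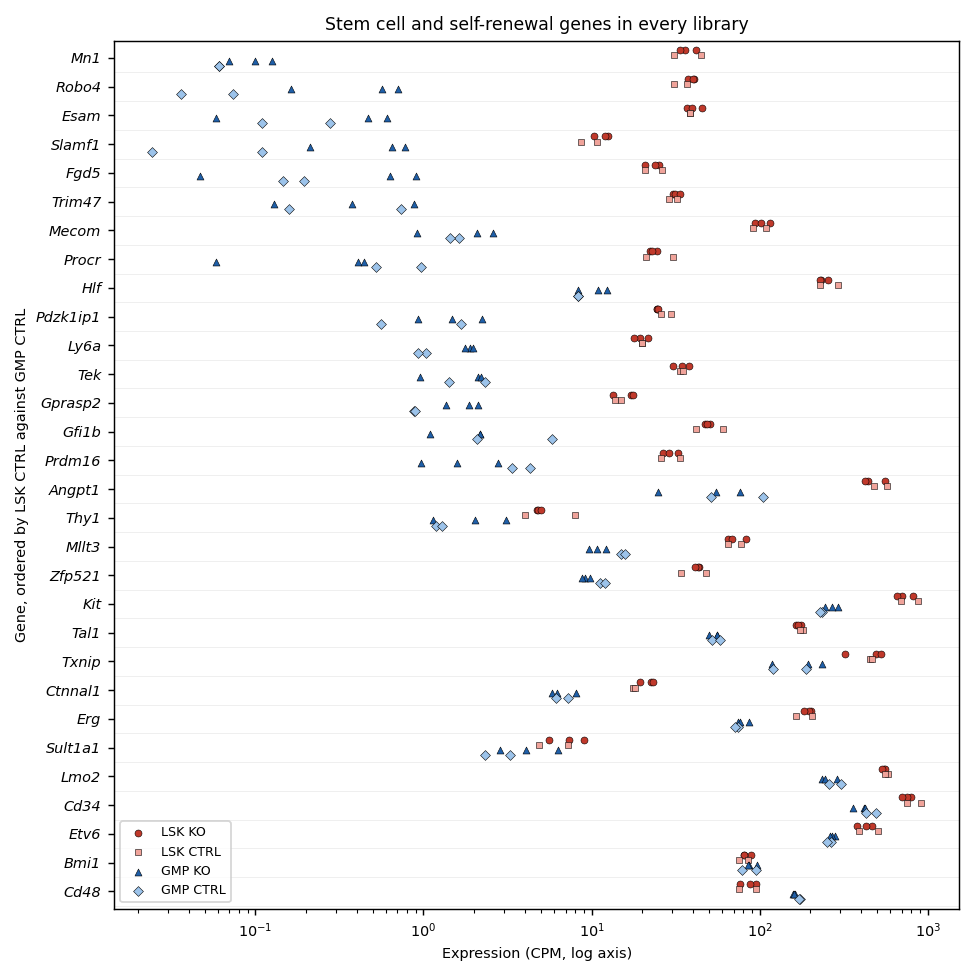
Level of each of the 30 genes (CPM, log axis) in every library, with LSK KO, LSK CTRL, GMP KO and GMP CTRL in separate colours. Most genes sit far higher in the LSK libraries, while Bmi1 overlaps between the populations and Cd48 is higher in GMP.

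In LSK cells the loss of Dnmt3a left no member past the threshold. With edgeR's quasi-likelihood test and Benjamini-Hochberg adjustment over all 17238 genes, 0 of 30 members were called at an adjusted p below 0.05, where 0.0232% of all genes were called. DESeq2 and limma-voom also called 0 members. The log2 difference (KO over CTRL) was positive in 15 members and negative in 15, with a median of 0.00 for members and 0.00 for all genes, and ran from -0.30 for Thy1 to 0.29 for Ctnnal1. At an unadjusted p below 0.05 stood 1 member, Ctnnal1, and 2.83% of all genes. The 95% interval of the difference lay within 1 log2 unit of 0 for all 30 members and for 73.2% of all genes, and its widest bound among members was 0.88. In bulk RNA, fewer cells of a type and less RNA per cell cannot be told apart.

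Of the 11 surface receptors and membrane proteins, 0 were called and 5 had positive differences, with a median of -0.02. Robo4, a guidance receptor that takes part in holding stem cells in the marrow, was at 40.8, 37.2 and 40.2 CPM in LSK KO-1327, KO-1333 and KO-1334, against 37.1 and 30.9 CPM in LSK CTRL-1326 and CTRL-1330. All 3 KO libraries lay above both CTRL libraries, the nearest by a small margin (log2 difference 0.23 ± 0.11 SE, edgeR adjusted p = 0.9998, a value shared by all 30 members here). Slamf1 was at 10.3, 12.6 and 12.0 CPM in LSK KO, against 8.71 and 10.8 CPM in LSK CTRL, and the groups overlapped (0.26 ± 0.16). Pdzk1ip1, a small membrane protein enriched in stem cells, was at 24.4, 24.4 and 24.7 CPM in LSK KO, against 29.6 and 26.0 CPM in LSK CTRL, with the KO libraries below both CTRL libraries (-0.17 ± 0.11).

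Procr, the endothelial protein C receptor EPCR, was at 24.5, 22.2 and 23.0 CPM in LSK KO, against 30.5 and 21.0 CPM in LSK CTRL (-0.13 ± 0.15). The CTRL libraries were its highest and its lowest. Kit and Ly6a, of the LSK sort gate, and Cd34, of the GMP sort gate, overlapped between the genotypes. Kit, the receptor of stem cell factor, was at 820, 704 and 656 CPM in LSK KO, against 880 and 693 in LSK CTRL (-0.10 ± 0.13). Cd34 was at 796, 749 and 705 CPM in LSK KO, against 912 and 750 in LSK CTRL (-0.14 ± 0.11). Ly6a, which encodes Sca1, was at 21.8, 19.3 and 17.8 CPM in LSK KO, against 20.1 and 20.0 in LSK CTRL (-0.02 ± 0.13).

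Robo4, Esam, Procr and Tek are also made by endothelium. The 12 endothelial markers summed to 86.0 to 98.3 CPM in LSK KO, against 70.4 to 90.4 in LSK CTRL, with Egfl7 the most abundant. Among the low markers, Cdh5 and Sox17 averaged 0.446 and 0.0188 CPM in LSK KO and 0.359 and 0.0152 CPM in LSK CTRL. Others were higher and went either way. Kdr averaged 1.95 CPM in LSK KO and 2.55 in LSK CTRL, Plvap 2.51 and 3.32, and Emcn 19.9 and 16.6. Of the 9 endothelial markers tested, 4 had positive differences, with a median of -0.37, and edgeR called 0. Thy1 was at 4.71 to 4.99 CPM in LSK KO, against 7.98 and 4.02 CPM in LSK CTRL-1326 and CTRL-1330, and the 14 T and NK markers summed to 117 to 138 CPM in LSK KO, against 164 and 123 CPM in the same CTRL libraries. Nkg7, a granule protein of cytotoxic cells, made up most of that sum, at 78.8 to 93.8 CPM in LSK KO, against 115 and 88.4 CPM in LSK CTRL, and was higher still in every GMP library. The part of these markers in the differences was not tested.

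Of the 12 transcription factors and chromatin regulators, 0 were called and 5 had positive differences, all between -0.12 and 0.08. Mecom, the zinc finger factor EVI1, was at 93.6, 115 and 102 CPM in LSK KO, against 110 and 91.5 CPM in LSK CTRL (0.05 ± 0.10). Hlf, a PAR bZIP factor restricted to immature cells, was at 257, 230 and 228 CPM in LSK KO, against 291 and 229 CPM in LSK CTRL (-0.12 ± 0.11). Mllt3, an elongation cofactor, was at 64.8, 83.2 and 68.8 CPM in LSK KO, against 77.7 and 64.5 CPM in LSK CTRL (0.03 ± 0.11). In all 3 genes the KO and CTRL values were interleaved. Lmo2 was the only one of the 12 without overlap, at 538 to 555 CPM in LSK KO, against 557 and 582 CPM in LSK CTRL. Bmi1, a subunit of Polycomb repressive complex 1 needed for self-renewal, was at 80.2 to 88.6 CPM in LSK KO, against 75.6 and 85.4 CPM in LSK CTRL.

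Among the 6 cytoplasmic and other proteins, 0 were called and 5 had positive differences. Ctnnal1, alpha-catulin, a reporter gene of stem cells in mice, was at 19.4, 22.7 and 23.3 CPM in LSK KO, against 17.6 and 18.2 CPM in LSK CTRL. Every KO library was above both CTRL libraries (0.29 ± 0.12). Gprasp2, a receptor sorting protein, was at 13.3, 17.1 and 17.6 CPM in LSK KO, against 13.8 and 14.9 CPM in LSK CTRL, with 1 KO library below both CTRL libraries (0.16 ± 0.15). The ligand Angpt1 was at 422 to 560 CPM in LSK KO, against 477 and 574 CPM in LSK CTRL. Without overlap between the genotypes were 4 of 30 members, 2 higher (Robo4 and Ctnnal1) and 2 lower (Pdzk1ip1 and Lmo2) in LSK KO, and 6.34% of all genes were higher and 7.67% lower in this way.

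Part of the spread between the LSK libraries followed sex. Hlf, Procr, Ly6a, Cd34, Kit, Tal1, Etv6, Erg, Angpt1, Mn1, Zfp521 and Cd48 were higher in both male libraries than in all 3 female libraries, 12 of 30 members against 15.7% of all genes. Tek, Slamf1, Gfi1b, Gprasp2 and Sult1a1 were lower in both, 5 of 30 against 12.2%. CTRL-1326 was the highest LSK library for 15 members (27.7% of all genes) and CTRL-1330 the lowest for 13 (20.8%). Between KO and CTRL of the same sex, the log2 difference was negative in 22 members among males and 10 among females, and its sign was opposite in 18. In 15 of 30 members every male KO library lay to one side of its CTRL library and every female KO library to the other, against 38.8% of all genes. Robo4 was 0.14 higher in KO-1327 than in male CTRL-1326 and 0.33 higher in the mean of the female KO libraries than in female CTRL-1330, and Ctnnal1 0.14 and 0.34 in the same order. Mecom was at -0.23 in males and 0.24 in females, Mllt3 at -0.26 and 0.24, and Thy1 at -0.76 and 0.28. Each sex has a single CTRL library, so these within-sex values have no test, and sex and the single library cannot be told apart.

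**Figure D2:**
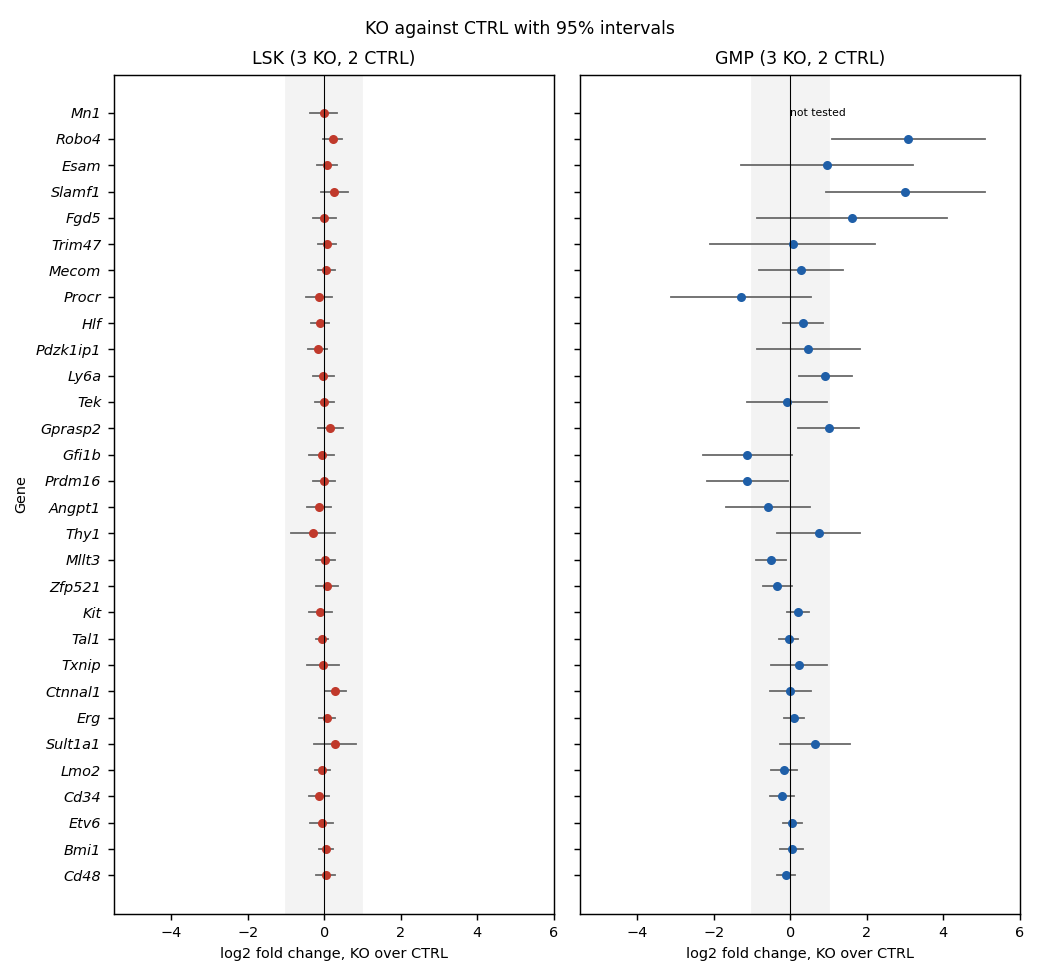
Log2 fold change of KO over CTRL with its 95% interval for each member, in LSK (left) and GMP (right), 3 KO and 2 CTRL libraries each, with the band of 1 log2 unit around 0 shaded. In LSK every interval stays in the band, whereas in GMP the intervals of low genes such as Robo4, Slamf1 and Fgd5 reach far outside it.

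In GMP no member passed the threshold either, and the largest differences were in members with few reads. Of the 30 members 29 could be tested, since Mn1, with 5 to 14 reads a library, did not pass the filter on low counts. edgeR called 0 of 29 at an adjusted p below 0.05, where 0.0347% of 17290 genes were called. limma-voom also called 0, and DESeq2 called 2, Robo4 and Mllt3 (adjusted p = 0.046 each), where it called 4.71% of all genes. At an unadjusted p below 0.05 stood 6 members, against 13.8% of all genes. The differences ranged from -1.29 for Procr to 3.09 for Robo4, with 17 positive and 12 negative and a median of 0.06 (0.01 over all genes), and 13 of 29 intervals lay within 1 log2 unit of 0 (55.5% of all genes).

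Robo4 was at 0.565, 0.704 and 0.163 CPM in GMP KO-178, KO-179 and KO-352, against 0.0731 and 0.0363 CPM in GMP CTRL-346 and CTRL-350, which is 51, 78 and 14 reads against 6 and 3. Slamf1 was at 0.653, 0.776 and 0.210 CPM in GMP KO, against 0.0244 and 0.109 CPM in GMP CTRL (59, 86 and 18 reads against 2 and 9). For both genes all KO libraries lay above both CTRL libraries, with KO-352 much the lowest of the KO libraries. The log2 difference was 3.09 ± 0.84 SE for Robo4 (edgeR adjusted p = 0.29) and 3.01 ± 0.87 for Slamf1 (adjusted p = 0.31), neither past the threshold. Without KO-352 they were 3.49 (adjusted p = 0.056) and 3.39 (adjusted p = 0.063). With each of the other libraries left out in turn, Robo4 ran from 2.64 (without CTRL-350) to 3.68 (without CTRL-346) and Slamf1 from 2.32 (without CTRL-346) to 4.37 (without CTRL-350), with adjusted p from 0.38 to 0.81. Even in KO-179 these levels were 1.78% (Robo4) and 6.66% (Slamf1) of the LSK KO mean.

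Ly6a, on which GMP are sorted as negative, was at 1.89, 1.97 and 1.76 CPM in GMP KO, against 1.04 and 0.931 CPM in GMP CTRL. The groups did not overlap, and KO-352 was close to the other KO libraries (0.92 ± 0.30, adjusted p = 0.32). A fit of all 10 libraries gave 0.93 with an adjusted p of 0.039. Ly6a has near copies in the genome, and in the GMP table reads with several alignments are listed apart from the genes. Kit was at 295, 268 and 244 CPM in GMP KO, against 234 and 230 CPM in GMP CTRL (0.20 ± 0.12, adjusted p = 0.46). Cd34 was at 359, 420 and 423 CPM in GMP KO, against 495 and 428 CPM in GMP CTRL, lower in every KO library by a margin that was small next to CTRL-350 (-0.22 ± 0.13, adjusted p = 0.48).

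Procr was at 0.410, 0.442 and 0.0583 CPM in GMP KO, against 0.524 and 0.968 CPM in GMP CTRL (-1.29 ± 0.77, adjusted p = 0.47). It lay lower in all KO libraries, which is the opposite side from Robo4 and Slamf1. Pdzk1ip1 was at 1.47, 2.24 and 0.933 CPM in GMP KO, against 0.561 and 1.68 CPM in GMP CTRL, and the groups overlapped (0.46 ± 0.57, adjusted p = 0.73). Esam, an adhesion molecule, was at 0.465, 0.604 and 0.0583 CPM in GMP KO, against 0.110 and 0.278 CPM in GMP CTRL, so that KO-352 was the lowest of all. Of the 11 surface genes, 7 had positive differences.

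Among the 11 transcription factors tested, 5 had positive differences and the median was -0.05. Mllt3 was at 10.8, 12.2 and 9.71 CPM in GMP KO, against 15 and 15.7 CPM in GMP CTRL. All KO libraries were lower (-0.51 ± 0.17, edgeR adjusted p = 0.32). Prdm16, a histone methyltransferase related to Mecom, was at 0.963, 2.76 and 1.58 CPM in GMP KO, against 4.30 and 3.35 CPM in GMP CTRL, also without overlap. Gfi1b, a repressor protein that acts in stem, erythroid and megakaryocytic cells, was at 2.17, 2.16 and 1.10 CPM in GMP KO, against 2.08 and 5.81 CPM in GMP CTRL, where CTRL-350 alone was high. Mecom was at 2.09, 2.60 and 0.910 CPM in GMP KO, against 1.62 and 1.44 CPM in GMP CTRL (0.28 ± 0.47, adjusted p = 0.81). Hlf was at 11.0, 12.3 and 8.30 CPM in GMP KO, against 8.25 and 8.36 CPM in GMP CTRL (0.33 ± 0.22, adjusted p = 0.51). For Mecom and Hlf, KO-178 and KO-179 were above the CTRL libraries and KO-352 was not.

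Among the remaining proteins, Gprasp2 was at 1.36, 2.12 and 1.87 CPM in GMP KO, against 0.877 and 0.895 CPM in GMP CTRL. All KO libraries were higher (1.0 ± 0.34, adjusted p = 0.32). Fgd5, an exchange factor whose locus is used to mark stem cells in mice, was at 0.897, 0.631 and 0.0467 CPM in GMP KO, against 0.195 and 0.145 CPM in GMP CTRL, the highest 2 and the lowest library all being KO. Ctnnal1 was at 5.85, 8.09 and 6.27 CPM in GMP KO, against 7.23 and 6.17 CPM in GMP CTRL (0.00 ± 0.23, adjusted p = 0.995). Angpt1 was at 54.8, 76.6 and 24.9 CPM in GMP KO, against 51.7 and 104 CPM in GMP CTRL. Of the 29 members, 5 (Robo4, Slamf1, Ly6a, Kit and Gprasp2) were higher and 6 (Procr, Mllt3, Prdm16, Cd34, Zfp521 and Cd48) lower in GMP KO without overlap, where 17.7% of all genes were higher and 14.6% lower in this way. Mn1, untested, was at 0.0700 to 0.126 CPM in GMP KO, against 0.0605 and 0.0609 CPM in GMP CTRL.

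The KO libraries of GMP were not alike. KO-352 was below both KO-178 and KO-179 for 20 of 29 members, against 41.7% of all genes, and was the lowest of the 5 GMP libraries for 12 (14.3% of all genes). KO-179 was the highest for 14 (25.9%). KO-352 also had the least Dnmt3a, at 20.5 CPM, against 51.7 and 65.9 CPM in KO-178 and KO-179. Summed markers of other cells also varied between the GMP libraries, KO-352 having the lowest sum for some lists and not for others. Some of these sums rest mostly on a single abundant gene, as given below. The 11 megakaryocyte markers summed to 95.1, 132 and 46.3 CPM in GMP KO-178, KO-179 and KO-352, against 63.0 and 126 CPM in GMP CTRL-346 and CTRL-350. The 12 endothelial markers summed to 22.4, 25.7 and 18.1 CPM in GMP KO, against 18.2 and 22.7 CPM in GMP CTRL, and most of that sum was Egfl7. The 10 markers of mature neutrophils summed to 2640, 5063 and 684 CPM in GMP KO, against 1072 and 2621 CPM in GMP CTRL, and the 12 mast cell and basophil markers to 2664, 2874 and 2688 CPM in GMP KO, against 3391 and 5052 CPM in GMP CTRL. KO-352 had the highest sum of the KO libraries for the 14 erythroid markers (506, 594 and 627 CPM in GMP KO, against 843 and 651 in GMP CTRL). The same held for the 14 T and NK markers (355, 291 and 367 CPM, against 511 and 426) and the 11 markers of primary granules and myeloid progenitors (19070, 16722 and 22759 CPM, against 26832 and 20873). Tfrc made up most of the erythroid sum, at 397, 492 and 591 CPM in GMP KO, against 807 and 580 in GMP CTRL. Most of the T and NK sum was Nkg7, at 341, 275 and 362 CPM, against 508 and 421. Of the 11 T and NK markers tested in GMP, 8 had positive differences (KO over CTRL), with a median of 0.87, and edgeR called 0. Srgn made up most of the mast cell and basophil sum in GMP KO, at 1877, 1901 and 2099 CPM. These sums therefore rest on single genes, and the other genes of the lists differed in order. With Tfrc, Nkg7 or Srgn set aside, the rest of its list's sum was lowest in KO-352 among the KO libraries. That of the primary granule list stayed highest in KO-352 with Mpo set aside. Markers of lymphoid priming (8 genes) summed to 167, 239 and 144 CPM in GMP KO, against 82.6 and 108 CPM in GMP CTRL. The share of reads outside annotated genes was 15.5%, 16.1% and 10.3% in GMP KO, against 8.50% and 14.2% in GMP CTRL. With that share as a term of the fit, Robo4 was 2.36 and Slamf1 2.24 log2 units higher in GMP KO (adjusted p = 0.20 and 0.087). The part of the marker genes in the differences was not tested.

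**Figure D3:**
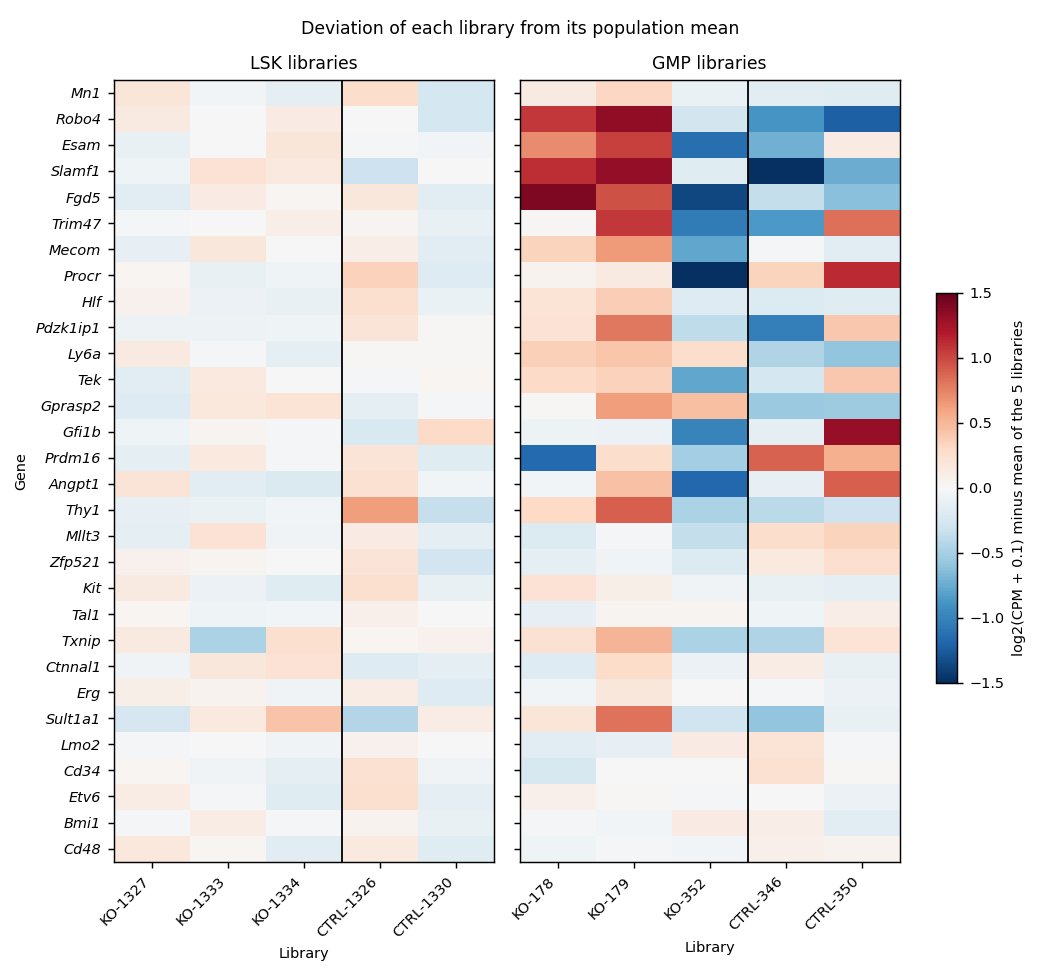
Deviation of each library from the mean of its population's 5 libraries, in log2(CPM + 0.1), per gene, KO libraries left of CTRL libraries. In GMP, KO-178 and KO-179 are above the mean for Robo4, Slamf1, Fgd5 and Esam while KO-352 is below it for all of these, and in LSK the deviations are small.

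Whether the effect of the deletion differed between the populations was tested directly, as the KO effect in LSK minus that in GMP. edgeR called 0 of 30 members, where 0.0265% of 18836 genes were called, and 6 members had an unadjusted p below 0.05, as did 10.1% of all genes. The smallest adjusted p was 0.27, for Ly6a (-0.96 ± 0.22 SE). Robo4 had a difference of -2.89 ± 0.72 (adjusted p = 0.33) and Slamf1 of -2.75 ± 0.77 (adjusted p = 0.34). limma-voom called 0 members and DESeq2 called 3, Robo4, Slamf1 and Ly6a (adjusted p = 0.0034, 0.014 and 0.030), where it called 1.42% of all genes. Without KO-352, edgeR called 4, these 3 and Fgd5, where 3.06% of all genes were called.

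The populations themselves differed in nearly every member. In LSK CTRL against GMP CTRL, 28 of 30 members were higher (28.2% of all genes) and 1, Cd48, was lower (27.3%), with a median log2 difference of 2.85 over members and 0.12 over all genes. In LSK KO against GMP KO, 27 were higher (30.7%) and 1, again Cd48, was lower (30.1%), with medians of 3.18 and 0.08. Ly6a, Kit and Cd34 were sort criteria, so their differences are not independent of the gate. Scaling by total counts raised the median of all genes by 0.41 log2 units between the CTRL groups and 0.38 between the KO groups, and every such difference is relative to the scaling. Sult1a1, a sulfotransferase, was called between the CTRL groups (1.11 ± 0.39, adjusted p = 0.035) and not between the KO groups (0.73 ± 0.32, adjusted p = 0.069), and both calls turned under other settings.

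The genes with the steepest difference were Mn1, a transcriptional coregulator active in leukaemia, and Robo4, both 9.23 log2 units higher in LSK CTRL than in GMP CTRL (SE 0.32 and 0.58). They rested on 10 and 9 reads in all of GMP CTRL. Esam was 7.62 ± 0.66, Slamf1 7.15 ± 0.69 and Fgd5 7.09 ± 0.84 higher. Mecom was 6.04 ± 0.40, Procr 5.10 ± 0.57 and Hlf 4.97 ± 0.20 higher. All 8 passed the threshold, with Fgd5 at the highest adjusted p of the 8 (edgeR, 6.2e-05). At the other end Etv6, an ETS repressor, was 0.79 ± 0.14 higher and Cd34 0.85 ± 0.13. Cd48 was at 76.9 to 95.7 CPM in LSK KO, 75.4 and 94.9 in LSK CTRL, 158 to 163 in GMP KO and 171 and 175 in GMP CTRL (-0.89 ± 0.11 between KO groups and -1.02 ± 0.13 between CTRL groups). Bmi1 was the one member called in neither genotype, at -0.10 ± 0.10 between the KO groups and -0.11 ± 0.12 between the CTRL groups. Scaled by total counts, however, Bmi1 was higher in LSK, by 0.28 (adjusted p = 0.0088) and 0.31 (adjusted p = 0.015).

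**Figure D4:**
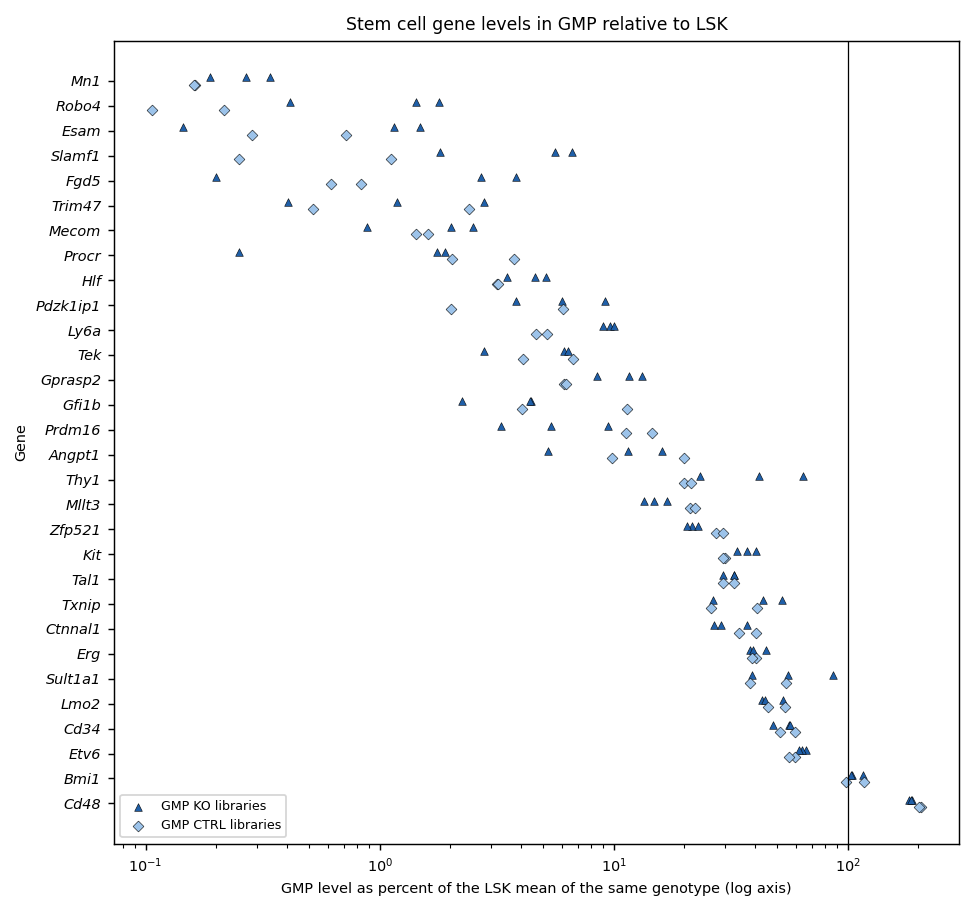
Level of each member in every GMP library as a percent of the LSK mean of the same genotype (log axis, KO and CTRL in separate colours). Genes spread from below 1% in every library (Mn1) to about 100% (Bmi1) and above (Cd48), and the KO libraries of Robo4, Slamf1 and Fgd5 are spread more widely than those of Bmi1.

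Expressed as a percent of the LSK mean of the same genotype, 7 members (Procr, Robo4, Esam, Mecom, Mn1, Fgd5 and Trim47) were below 5% in every GMP library. They ran from 0.144% to 3.84% in GMP KO and from 0.107% to 3.76% in GMP CTRL. Slamf1 was at 5.61%, 6.66% and 1.80% in GMP KO, against 0.250% and 1.12% in GMP CTRL. Ly6a was at 9.63%, 10% and 8.97% in GMP KO, against 5.16% and 4.64% in GMP CTRL. The shares of Slamf1 and Ly6a were higher in every KO library than in either CTRL library. So were those of Robo4, Hlf, Kit, Thy1, Gprasp2, Etv6 and Mn1. Those of Procr, Mllt3, Prdm16, Zfp521 and Cd48 were lower in every KO library. How often such a separation of shares arises over all genes was not counted. Sult1a1 was at 55.5%, 86.5% and 39.1% in GMP KO and 38.4% and 54.5% in GMP CTRL. Cd34 kept 47.8% to 56.4% in GMP KO and 51.4% and 59.6% in GMP CTRL. Etv6 kept 61.7% to 66.0% in GMP KO and 55.8% and 59.5% in GMP CTRL, Bmi1 103% to 116% and 97.9% and 118%, and Cd48 182% to 188% and 201% and 205%.

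Other genes of the same programme were looked at in 4 further lists, and edgeR called none between KO and CTRL. At an unadjusted p below 0.05 stood 1 of 56 tested in LSK (Tie1), against 2.83% of all genes, and 5 of 53 in GMP (Spi1, Selp, Emcn, Cbx8 and Tie1), against 13.8% of all genes. limma-voom also called 0 in both populations, and DESeq2 called 0 in LSK and 2 in GMP (Selp and Tie1). Of 20 other stem cell regulators, 20 were tested in LSK and 17 in GMP and 0 were called. Spi1, which encodes the myeloid factor PU.1, had the smallest p in GMP, at 111 ± 14.4 CPM in GMP KO and 146 ± 18.5 CPM in GMP CTRL (-0.41 ± 0.15, edgeR adjusted p = 0.34), and Nfia in LSK (-0.21 ± 0.14). Of 17 other surface proteins 0 were called. Selp, P-selectin, a granule protein of platelets and endothelium, averaged 10.3 ± 5.06 CPM in GMP KO and 1.35 ± 0.359 CPM in GMP CTRL (2.90 ± 0.54, adjusted p = 0.24). In LSK it averaged 36.6 ± 16.6 CPM in LSK KO and 30.3 ± 15.8 CPM in LSK CTRL. Emcn, endomucin, averaged 19.9 ± 3.22 CPM in LSK KO and 16.6 ± 0.951 in LSK CTRL (0.26 ± 0.15), and 0.672 ± 0.380 CPM in GMP KO and 0.158 ± 0.102 in GMP CTRL (2.08 ± 0.77, adjusted p = 0.34).

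Around Bmi1, 13 other genes of Polycomb repressive complex 1 were tested and 0 were called in either population. Cbx8 averaged 9.72 ± 4.10 CPM in GMP KO and 18.3 ± 1.65 CPM in GMP CTRL (-0.92 ± 0.32, adjusted p = 0.33), and Pcgf2 averaged 5.11 ± 1.15 CPM in LSK KO and 3.81 ± 0.174 CPM in LSK CTRL (0.44 ± 0.24). Around Tek and Angpt1, 6 of 7 ligands and partners were tested in each population and 0 were called. Tie1, the partner receptor of Tek, averaged 89.5 ± 5.23 CPM in LSK KO and 107 ± 14.2 CPM in LSK CTRL (-0.25 ± 0.09), and 12.8 ± 2.70 CPM in GMP KO and 26.4 ± 3.90 CPM in GMP CTRL (-1.06 ± 0.21, adjusted p = 0.26). Its values were lower in KO in both populations, and neither passed the threshold.

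The regulators, the surface proteins and the Tek list were also set between the populations. In LSK CTRL against GMP CTRL, where 28.2% of all genes were higher and 27.3% lower, 14 of 20 regulators were higher, with Gata2 at 2.18 and Hmga2 at 6.03, and Fli1, Spi1 and Myb were lower. Of the 17 surface proteins 11 were higher, among them Emcn at 6.70, and Cd93 was lower at -0.52. In the Tek list 4 of 6 were higher. In LSK KO against GMP KO, where 30.7% of all genes were higher and 30.1% lower, 16 regulators were higher and 3 lower, 13 surface proteins were higher and 2 lower, and 4 of the Tek list were higher and 0 lower.

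Some members share exon bases with a neighbour, and the sources used here do not give the strand setting. Of the 30, 9 overlap the exons of another gene, 7 of them on the opposite strand. Txnip shares 19.4% of its exon bases with Gm15441 and Angpt1 14.2% with Gm17473, and their reads could come from either gene.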

How the data were processed

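Total RNA of sorted LSK and GMP cells was sequenced after ribosomal RNA removal with a stranded kit, per the labels' protocols. The deposited tables hold raw counts of reads per Ensembl gene. The submitters' processing notes name STAR, HTSeq 0.5.3p3, DESeq 1.18.0, DESeq2 1.4.5, mm10 and GRCm38 without roles; the sources used here give neither annotation release nor strand setting. The deposited normalized tables were not used, and lines naming no gene were left out of library sizes.

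The test was edgeR's two-sided quasi-likelihood test on counts (edgeR 4.0.16 in R 4.3.3; TMM scaling, filterByExpr at a minimum count of 10, Benjamini-Hochberg over all genes, threshold 0.05). KO was set against CTRL within each population's own table, and LSK against GMP and the difference of KO effects in a fit of all 10 libraries over the shared gene IDs. SE is the log2 fold change over the root of F. CPM uses TMM over all 10 libraries, so 1 read is worth about 0.03 CPM in LSK and 0.01 CPM in GMP, and precision is lowest for members near 0 in GMP. Alternatives used DESeq2 1.42.0, limma-voom 3.58.1, other scalings, no filter, covariates and each library left out. The edgeR fit was tested on simulated counts with 200 changed genes. Every pair of replicates differed beyond sampling noise. Figures used matplotlib 3.10.9.

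The members and lists were chosen with earlier results of these data known. Full statistics are given for members past the threshold in KO against CTRL or in the difference, the 5 members of smallest p in each KO against CTRL fit, Ly6a, Kit, Cd34, Mecom, Hlf, Procr and Slamf1, with other members by range or values; Prdm16, Gfi1b, Fgd5, Esam, Angpt1, Thy1 and Bmi1 were added after their values were seen. From each further list the genes with the smallest p were taken. The Polycomb list between the populations is not reported here.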

Additional observations from a re-analysis of the deposited data

Results flagged for a closer look

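In LSK cells the log2 difference of KO over CTRL ran in opposite directions in males and females for 3 of the 5 members given by sex, with every KO library on its sex's side. In males minus females it was -0.47 for Mecom, -0.50 for Mllt3 and -1.04 for Thy1. This difference was not tested, since each sex holds 1 CTRL library, and the same split was found in 38.8% of all genes.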

How the results depend on the processing

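No paired analysis was possible because the groups compared share no replicate number. Where leaving out a library left 1 CTRL library, that library was assumed to vary like the others. No cause of the changes below was tested, other than fewer samples where a library was left out.

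Members called between LSK KO and LSK CTRL stayed at 0 under every alternative run. The count of all genes called there (4) was 20 with DESeq2, 27 with no filter and 0 in the fit of all 10 libraries, and 3 to 11 with a library left out, with 11 without CTRL-1326. The members' median ran from -0.064 to 0.11 with a library left out. In GMP KO against GMP CTRL, members called were 2 with DESeq2 (Robo4 and Mllt3), 2 with a term for the share outside genes (Gfi1b, at -1.58 against -1.13 without the term, and Angpt1, at -1.22 against -0.59), 1 in the fit of all 10 libraries (Ly6a) and 0 with any library left out. All genes called (6) were 703 with DESeq2, 0 with limma-voom, 50 with no filter, 205 with that share as a term, 182 in the fit of all 10 libraries and 1 to 172 with a library left out, with 172 without KO-352. In the difference of KO effects, members called were 3 with DESeq2 and 0 to 4 with a library left out. The members' median of LSK CTRL against GMP CTRL was 3.26 with total counts and 2.68 to 3.03 with a library left out, and that of LSK KO against GMP KO 3.55 and 3.05 to 3.39.

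Signs turned in small differences. Bmi1 was 0.31 (CTRL groups) and 0.28 (KO groups) with total counts, and -0.27 to 0.056 between the CTRL groups with a library left out. Ctnnal1 in GMP was 0.00036 with limma-voom, 0.075 with total counts, 0.0087 in the fit of all 10 libraries and -0.16 to 0.13 with a library left out. With the outside share as a term, Mecom was -0.17 and Pdzk1ip1 -0.010 in GMP. With a library left out, GMP values ran from -0.041 to 0.61 for Mecom and -0.11 to 1.42 for Pdzk1ip1. LSK values ran from -0.31 to 0.25 for Gfi1b, -0.26 to 0.043 for Hlf, -0.25 to 0.056 for Kit, -0.11 to 0.043 for Ly6a, -0.055 to 0.16 for Mecom, -0.078 to 0.15 for Mllt3, -0.36 to 0.13 for Procr and -0.70 to 0.25 for Thy1. The difference of effects ran from -0.11 to 0.84 for Angpt1, -0.079 to 0.20 for Cd34 and -0.56 to 0.083 for Mecom. Sult1a1 lost its call between CTRL groups with limma-voom (adjusted p = 0.052), without GMP CTRL-346 (0.16) and without LSK CTRL-1330 (0.21), and was called between KO groups with DESeq2 (0.031), with total counts (0.018) and without GMP KO-179 (0.011).

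Of the 15 members given without fold changes between genotypes, the sign turned in 28 of 180 alternative values in LSK (11 members), 15 of 168 in GMP (7 of 14 tested) and 24 of 225 in the difference (8 members). Members with few reads in GMP, such as Robo4 and Fgd5, had wide intervals there, and KO-352 lay below the other KO libraries for both; the part of depth was not tested.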
